A study of Bos taurus with 11 samples.

Results

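Aminoacyl tRNA synthetases were followed in blood mononuclear cells of Ladakhi cattle, kept at high altitude, and of Sahiwal cattle, kept at low altitude. Members were all probes whose gene name in the array design is an amino acid's letter followed by ARS, with or without a closing digit, or one of the names EPRS, FARSA, FARSB, FARS2 and PARS2. The rule took 95 of 43653 probes, for 36 of the 24839 gene names on the array, and used no measured value. By name, 20 genes with 55 probes encode the cytosolic enzymes and 16 genes with 40 probes, whose names end in 2, encode the mitochondrial ones. No probe carried the name EARS2, so the mitochondrial glutamate enzyme was not analysed here. Gene names are those of the array design, several of which have since gained a closing digit.

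Each synthetase joins one amino acid to its transfer RNAs, the step that fixes what each codon means in translation. The cytosol and the mitochondrion use separate enzymes for most amino acids, all encoded in the nucleus, while in mammals KARS and GARS each make both forms and are counted here as cytosolic by name. Several cytosolic enzymes (EPRS, IARS, LARS, MARS, QARS, RARS, KARS and DARS) sit in the multisynthetase complex, held together by scaffold proteins, and the others work free of it. Many cytosolic members are known targets of the amino acid response, in which the transcription factor ATF4 raises genes of amino acid supply, and WARS is also known as an interferon-induced gene.

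The study hybridised labelled RNA of Ladakhi samples (5 arrays) and of Sahiwal samples (6 arrays, called basal in the labels) to a single-colour bovine oligonucleotide array, and asked how the transcriptomes of the breeds differ. All samples were peripheral blood mononuclear cells (PBMCs, the lymphocytes and monocytes of blood) of females, with no treatment, age or other grouping given. The labels number the samples but do not say that each is a different animal. The p-values therefore weigh a difference against the spread between samples, which need not be that between animals. Breed, altitude, array slide, scanner and image-extraction version all change together, so their parts in any difference cannot be told apart.

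A level here is the log2 of a spot's processed signal minus the log2 of its array's scaling signal, the 75th percentile over the 2578 probes well above background on all 11 arrays. Levels of different probes are not comparable, and only the same probe is compared between breeds. A difference is the Ladakhi mean minus the Sahiwal mean, tested with limma over the 17866 probes that cleared the scanner software's background test on 4 or more arrays of Ladakhi or of Sahiwal samples. A probe counts as measured when it cleared that test on 4 or more arrays in both breeds, as 4034 probes did, and a difference passed the test at a Benjamini-Hochberg adjusted p under 0.05. In bulk RNA of mixed cells, fewer cells of a type and less RNA per cell cannot be told apart.

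The Ladakhi arrays were much dimmer: 4203 to 6572 probes were well above background on each of them, against 17417 to 20433 on each Sahiwal array, and the scaling signal was 735 to 1695 against 5898 to 14069. The lowest level at which a probe counted as well above background averaged -3.67 on Ladakhi arrays and -8.12 on Sahiwal arrays. Pairs of Ladakhi arrays correlated at 0.62 to 0.78 and pairs of Sahiwal arrays at 0.89 to 0.95. Defining markers of the cells in the label were detected in both breeds, among them CD3G and CD2 of T cells, CD79A of B cells and CSF1R and LYZ of monocytes. Among the measured markers, CD2 (5.45-fold) was higher and LYZ (3.53-fold) was lower in Ladakhi samples, with limma adjusted p of 8.3e-05 and 0.00517. Markers of cells outside the label were also present: the platelet gene PF4 and the red cell gene HBB were measured in both breeds, PF4 with an SD of 0.22 in Ladakhi samples and 1.60 in Sahiwal samples and HBB with 0.39 and 1.84, and the neutrophil gene CSF3R was above background on no Ladakhi array and on all 6 Sahiwal arrays. Its level was 0.27 and 0.69 in Sahiwal replicates 4 and 6, which stood apart, and -4.54 to -3.60 in the other Sahiwal samples. CXCR2, also of neutrophils, was above background on 1 Ladakhi array and on 2 Sahiwal arrays, where the same replicates had -1.33 and -1.81. The part of cell mixture in the synthetase values was not tested.

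The probes that carry the results are printed as the Sahiwal files give them, 5′ to 3′, with their positions on the HGSC Btau_3.1 assembly. Each has 60 bases. Capitals mark AATAAA, the hexamer of the polyadenylation signal, which lies near the 3′ end of many messenger RNAs. The files annotate no exon or UTR for these positions, and the array's probes are designed to transcripts. First come probes of the genes with a measured probe that was higher in Ladakhi samples. The second probes listed for WARS, SARS and IARS did not pass as higher and are shown for comparison.
WARS A_73_109216, chr21:65341039-65341098: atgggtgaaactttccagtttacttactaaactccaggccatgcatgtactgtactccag
WARS A_73_P042111, chr21:65341143-65341202: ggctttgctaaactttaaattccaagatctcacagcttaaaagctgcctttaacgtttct
GARS A_73_P464881, chr4:68320284-68320343: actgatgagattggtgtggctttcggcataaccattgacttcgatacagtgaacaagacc
GARS A_73_P034521, chr4:68318484-68318543: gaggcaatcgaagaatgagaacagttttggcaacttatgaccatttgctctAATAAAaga
SARS A_73_P042826, chr3:36853894-36853953: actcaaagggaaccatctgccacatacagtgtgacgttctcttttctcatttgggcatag
SARS A_73_P092821, chr3:36866165-36866224: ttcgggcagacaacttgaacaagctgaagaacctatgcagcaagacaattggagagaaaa
NARS A_73_P244595, chr24:59152308-59152367: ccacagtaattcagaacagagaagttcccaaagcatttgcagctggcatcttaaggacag
AARS A_73_108830, chr18:1163885-1163944: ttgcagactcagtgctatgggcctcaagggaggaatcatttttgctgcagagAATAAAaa
QARS A_73_P045881, chr22:51849949-51850101: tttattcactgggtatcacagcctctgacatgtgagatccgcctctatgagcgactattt
IARS A_73_P394611, chr8:88005995-88006054: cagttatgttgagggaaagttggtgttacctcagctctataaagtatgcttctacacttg
IARS A_73_105874, chr8:88005810-88005869: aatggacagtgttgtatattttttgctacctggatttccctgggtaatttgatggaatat
The QARS probe covers 153 bases of the assembly with its 60 letters, so its placement holds a gap, and 29 of the 95 member probes were placed with such a gap.

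The probes that were lower in Ladakhi samples once dim signals were raised to the detection limit are shown next. In the FARSB pair, capitals mark instead the 54 bases that both probes share, which include AATAAA.
VARS A_73_113106, chr23:27349474-27349531: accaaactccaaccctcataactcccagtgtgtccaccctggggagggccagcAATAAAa
FARSB A_73_P253956, chr6:35113262-35113321: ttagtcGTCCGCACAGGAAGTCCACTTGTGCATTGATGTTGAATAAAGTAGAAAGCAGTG
FARSB A_73_P036902, chr6:35113268-35113327: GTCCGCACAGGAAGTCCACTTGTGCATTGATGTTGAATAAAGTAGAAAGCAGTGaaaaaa
AATAAA stood on the printed strand of 14 of the 95 synthetase probes, 14.7%, and of 9.35% of all 43653 probes. Its reverse complement stood in 1 synthetase probe and in 3.46% of all probes. A match of these letters is a description of the probe and not a mapped site.

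Of the 95 synthetase probes, 14 probes of 11 genes were measured in both breeds, and 8 of the 14 were higher in Ladakhi samples. None was lower and 6 did not pass the test. Over all measured probes 33.0% changed, with 17.9% higher and 15.1% lower. The median difference over the brightest measured probe of each gene was 1.01 on the log2 scale, where the median of all measured probes was -0.03. Counted by that probe, 6 genes were higher (WARS, GARS, SARS, NARS, AARS and QARS) and 5 did not pass (DARS, YARS, KARS, IARS and SARS2). In 7 of the 14 probes the arrays of the breeds did not overlap, against 21.5% of all measured probes.

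These shares depend on brightness, because a probe that is dim on Sahiwal arrays is measured only where its Ladakhi level is high enough to see. Among the 3789 measured probes with a Sahiwal mean above the mean Ladakhi limit, 13.9% were higher, and 7 of the 13 synthetase probes in that range were. Among measured probes with Sahiwal means within the range of the synthetase probes (-4.20 to -0.35), 17.1% were higher, with a median difference of 0.03. That median hides a change with level. Around each synthetase probe, within 0.25 of its Sahiwal mean, the share called higher ran from 8.04% for YARS to 80.2% for the probe A_73_P394611 of IARS. That IARS probe is therefore at a level where most measured probes were called higher, with a median difference of 1.43. The median was 0.34 around WARS, 0.40 around QARS, 0.54 around NARS, and 0.30 and 0.68 around the GARS probes. It was -0.32 around AARS and -0.31 around SARS A_73_P042826.

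**Figure D1:**
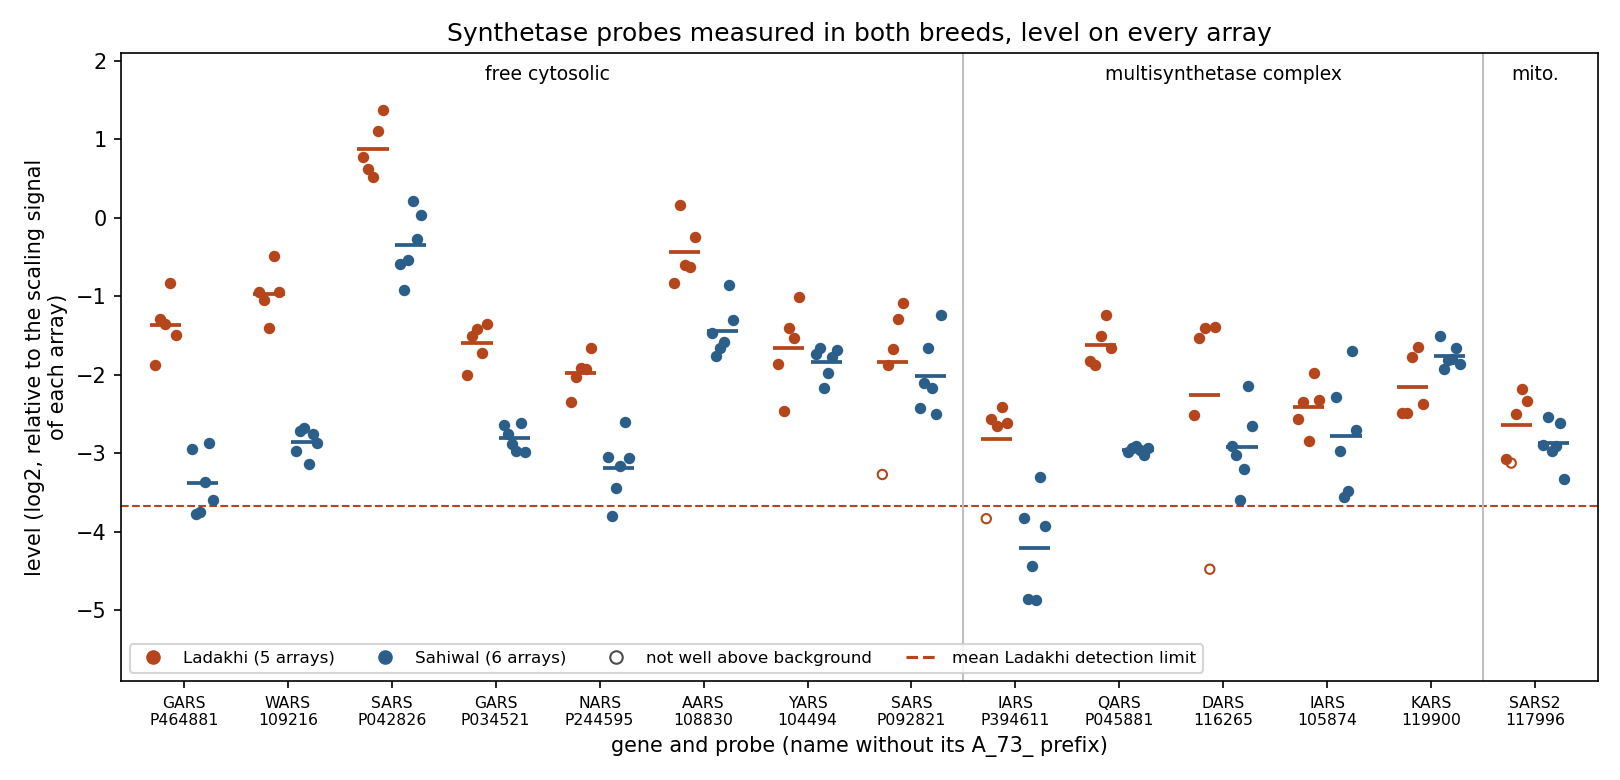
Level (log2, relative to each array's scaling signal) of the 14 measured synthetase probes on every array, Ladakhi left of Sahiwal for each probe, with bars at the means and open points where a spot was not well above background. The dashed line is the mean Ladakhi detection limit (-3.67). WARS, both GARS probes, SARS A_73_P042826, NARS, AARS and QARS show no overlap between the breeds.

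Among the free cytosolic enzymes, WARS, GARS, SARS, NARS and AARS were higher in Ladakhi samples and YARS did not pass. WARS charges tryptophan. Its probe A_73_109216 had levels of -0.94, -1.05, -1.40, -0.49 and -0.95 in Ladakhi samples, against a lowest of -3.14, a median of -2.82 and a highest of -2.67 in Sahiwal samples. Every Ladakhi sample lay above every Sahiwal sample. The difference was 1.89 ± 0.25 (SE; n = 5 and 6), 3.71-fold, with a limma adjusted p of 0.000142. Of measured probes of like Sahiwal level, 24.3% were called higher.

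GARS charges glycine and was read by a pair of measured probes, both higher. A_73_P464881 had levels of -1.87, -1.29, -1.35, -0.83 and -1.49 in Ladakhi samples, against a lowest of -3.77, a median of -3.48 and a highest of -2.87 in Sahiwal samples. The difference was the largest of the measured synthetase probes, 2.02 ± 0.29 (SE), 4.04-fold, with a limma adjusted p of 0.000229. Near its Sahiwal level 37.6% of measured probes were called higher. The breeds did not overlap at this probe, nor at the probe nearer the 3′ end. There, A_73_P034521 had levels of -2.01, -1.50, -1.42, -1.72 and -1.36 in Ladakhi samples, against a lowest of -2.98, a median of -2.82 and a highest of -2.61 in Sahiwal samples. Its difference was 1.21 ± 0.24 (SE), 2.31-fold, with a limma adjusted p of 0.00167, and 23.0% of measured probes of like level were called higher. The GARS probes thus gave one direction with sizes that differ.

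SARS charges serine, and its measured probes disagreed in size. A_73_P042826 had levels of 0.77, 0.62, 0.52, 1.11 and 1.37 in Ladakhi samples, against a lowest of -0.92, a median of -0.41 and a highest of 0.21 in Sahiwal samples. Every Ladakhi sample was above every Sahiwal sample, with a difference of 1.23 ± 0.29 (SE) and a limma adjusted p of 0.0043. At its Sahiwal level only 8.50% of measured probes were called higher. A_73_P092821 had levels of -3.27, -1.88, -1.68, -1.29 and -1.08 in Ladakhi samples, the first not above background, against a lowest of -2.49, a median of -2.14 and a highest of -1.24 in Sahiwal samples. The breeds overlapped there, and the difference of 0.18 (95% interval -0.66 to 1.01) did not pass (limma adjusted p = 0.741). With the mean of both measured probes the SARS difference was 0.70 and no longer passed, with a limma adjusted p of 0.0783.

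NARS charges asparagine. Its measured probe A_73_P244595 had levels of -2.35, -2.03, -1.91, -1.93 and -1.66 in Ladakhi samples, against a lowest of -3.80, a median of -3.11 and a highest of -2.60 in Sahiwal samples. The breeds did not overlap, and the difference was 1.21 ± 0.27 (SE), 2.31-fold, with a limma adjusted p of 0.00357. Near its Sahiwal level 31.5% of measured probes were called higher. AARS charges alanine and was brighter on both sides. Its probe A_73_108830 had levels of -0.83, 0.16, -0.61, -0.63 and -0.24 in Ladakhi samples, against a lowest of -1.76, a median of -1.53 and a highest of -0.85 in Sahiwal samples. The lowest Ladakhi sample lay just above the highest Sahiwal sample, and the difference was 1.01 ± 0.28 (SE), 2.01-fold, with a limma adjusted p of 0.0104. Of measured probes of like level, 10.95% were called higher.

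YARS, the tyrosine enzyme, did not pass. Its probe A_73_104494 had levels of -1.87, -2.47, -1.40, -1.53 and -1.01 in Ladakhi samples, against a lowest of -2.16, a median of -1.75 and a highest of -1.66 in Sahiwal samples. The Ladakhi samples lay on both sides of the Sahiwal ones. The difference was 0.18 (95% interval -0.44 to 0.79), with a limma adjusted p of 0.644.

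Within the multisynthetase complex, 4 of the 8 genes were measured and QARS alone was higher by its brightest probe. QARS charges glutamine. Its probe A_73_P045881 had levels of -1.83, -1.87, -1.51, -1.24 and -1.65 in Ladakhi samples, against a lowest of -3.03, a median of -2.94 and a highest of -2.91 in Sahiwal samples. The Sahiwal samples were nearly equal, with an SD of 0.04, the smallest of the 54 synthetase probes above background on all 6 Sahiwal arrays. The breeds did not overlap, and the difference was 1.34 ± 0.23 (SE), 2.53-fold, with a limma adjusted p of 0.000763. Of measured probes of like level, 25.7% were called higher.

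IARS charges isoleucine, and its probes, placed 185 bases apart, gave different calls. A_73_105874 had levels of -2.57, -2.34, -2.84, -1.98 and -2.32 in Ladakhi samples, against a lowest of -3.55, a median of -2.84 and a highest of -1.70 in Sahiwal samples. The breeds overlapped, and the difference of 0.37 (95% interval -0.38 to 1.12) did not pass (limma adjusted p = 0.412). A_73_P394611 had levels of -3.83, -2.57, -2.65, -2.41 and -2.61 in Ladakhi samples, the first not above background, against a lowest of -4.87, a median of -4.18 and a highest of -3.30 in Sahiwal samples. Its difference of 1.39 ± 0.36 (SE) passed, with a limma adjusted p of 0.00788, but its Sahiwal mean of -4.20 lay below the mean Ladakhi limit, where a measured probe can hardly be anything but higher.

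DARS, the aspartate enzyme, had levels of -2.51, -1.53, -1.41, -4.48 and -1.39 in Ladakhi samples at A_73_116265, the fourth not above background, against a lowest of -3.59, a median of -2.96 and a highest of -2.15 in Sahiwal samples. A single Ladakhi sample lay below all Sahiwal samples and 3 lay above them. The difference of 0.66 (95% interval -0.42 to 1.74) did not pass (limma adjusted p = 0.313), and without Ladakhi replicate 4 it was 1.21 with a limma adjusted p of 0.0158. KARS, the lysine enzyme, was the only measured member with a negative difference. Its probe A_73_119900 had levels of -2.49, -2.48, -1.78, -1.64 and -2.37 in Ladakhi samples, against a lowest of -1.93, a median of -1.81 and a highest of -1.51 in Sahiwal samples. The breeds overlapped, and the difference of -0.39 (95% interval -0.94 to 0.17) did not pass (limma adjusted p = 0.244).

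SARS2, which charges serine in the mitochondrion, was the only mitochondrial member measured in both breeds. Its probe A_73_117996 had levels of -3.07, -3.12, -2.50, -2.19 and -2.34 in Ladakhi samples, the second not above background, against a lowest of -3.32, a median of -2.90 and a highest of -2.54 in Sahiwal samples. The breeds overlapped, and the difference of 0.23 (95% interval -0.36 to 0.82) did not pass (limma adjusted p = 0.529). With 1 mitochondrial gene against 10 cytosolic ones (median difference 1.11), the compartments were not compared by size.

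**Figure D2:**
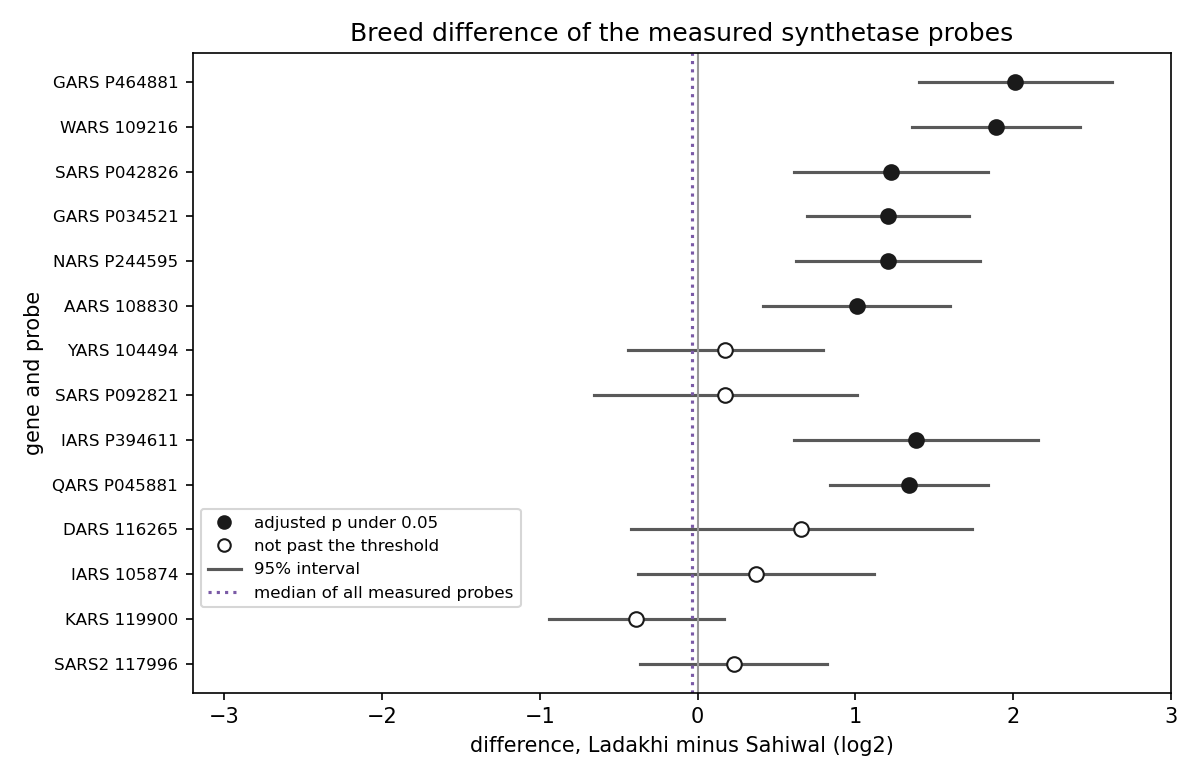
Difference in log2 level, Ladakhi minus Sahiwal, with its 95% interval, for each measured synthetase probe. Filled points passed the test, and the dotted line is the median of all measured probes (-0.03). The 8 filled points lie between 1.01 and 2.02, and KARS alone lies below 0.

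The spread between samples varied by probe. The median SD over the 14 probes was 0.38 in Ladakhi samples and 0.36 in Sahiwal samples, where all measured probes had medians of 0.56 in Ladakhi samples and 0.38 in Sahiwal samples. The Ladakhi SD was over 1.5 times the Sahiwal SD at 8 of the 14 probes, as for DARS with 1.32 in Ladakhi and 0.49 in Sahiwal samples. The reverse held at 2, as for IARS A_73_105874 with 0.32 in Ladakhi and 0.71 in Sahiwal samples. The share of all measured probes past this ratio was not counted. The Ladakhi SD of DARS includes replicate 4, at -4.48 and not above background. Ladakhi replicates 4 and 5 held the highest Ladakhi level at 7 and 6 of the 14 probes, and Ladakhi replicate 1 held the lowest at 7. Sahiwal replicate 5 held the highest Sahiwal level at 7. The Sahiwal arrays came from a pair of slides: of the 54 synthetase probes above background on all 6 of them, 3 did not overlap between the slides. SARS A_73_P042826 was 1 of these, with means of -0.75 and -0.14 on the slides, both below every Ladakhi sample. The share over all probes was not counted for the slides, nor for the highest and lowest replicates. No slide or replicate pattern particular to the synthetases is read from these counts.

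Detection differed by compartment on the dimmer arrays. Probes on at least 4 Ladakhi arrays served 10 of 20 cytosolic genes and 1 of 16 mitochondrial genes, while probes on at least 4 Sahiwal arrays served 19 and 13. Counted as probes, 13 of the 41 cytosolic probes on at least 4 Sahiwal arrays were also on at least 4 Ladakhi arrays, 31.7%, and 1 of the 19 mitochondrial probes was, 5.26%. The share over all 17848 such probes was 22.6%. Only 3 cytosolic genes (LARS, MARS and CARS) but 9 mitochondrial genes, among them FARS2, LARS2, NARS2, RARS2, WARS2 and YARS2, were above background on no Ladakhi array.

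The probes of the compartments also differed in brightness, which bears on detection. It does not compare amounts of message, because levels of different probes are not comparable. The mitochondrial probes detected in Sahiwal samples had a median level of -4.66 there and the cytosolic ones of -3.66, and detection on Ladakhi arrays climbs steeply over that range. Over all probes with a Sahiwal mean between -4 and -3, 19.1% were on at least 4 Ladakhi arrays, and between -3 and -2, 46.5% were. In the first range were 8 cytosolic probes, of which 2 were detected, and 5 mitochondrial probes, of which none was. In the second were 10 cytosolic probes, of which 6 were detected, and 2 mitochondrial probes, of which 1 was. Summing for each member the share of probes within 0.25 of its Sahiwal level gave 10.1 for the cytosolic probes, where 13 were detected, and 2.07 for the mitochondrial probes, where 1 was.

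**Figure D3:**
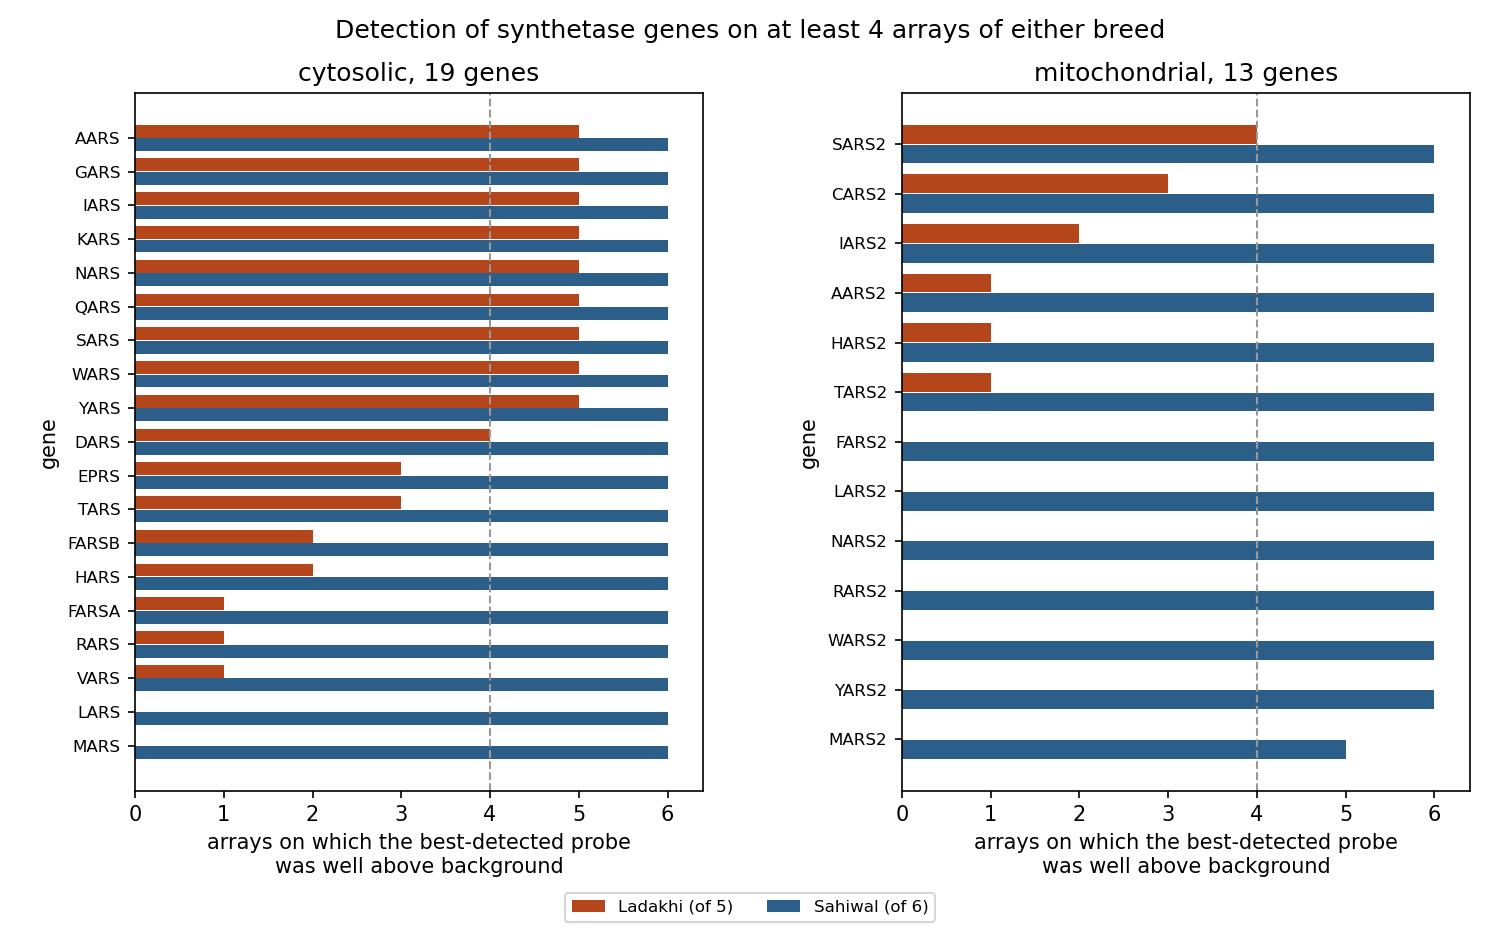
Number of arrays, Ladakhi above Sahiwal, on which the best-detected probe of a synthetase gene was well above background, for the 19 cytosolic and 13 mitochondrial genes that reached 4 arrays in either breed. The dashed line marks 4 arrays. On Ladakhi arrays 10 cytosolic genes and 1 mitochondrial gene reach it.

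**Figure D4:**
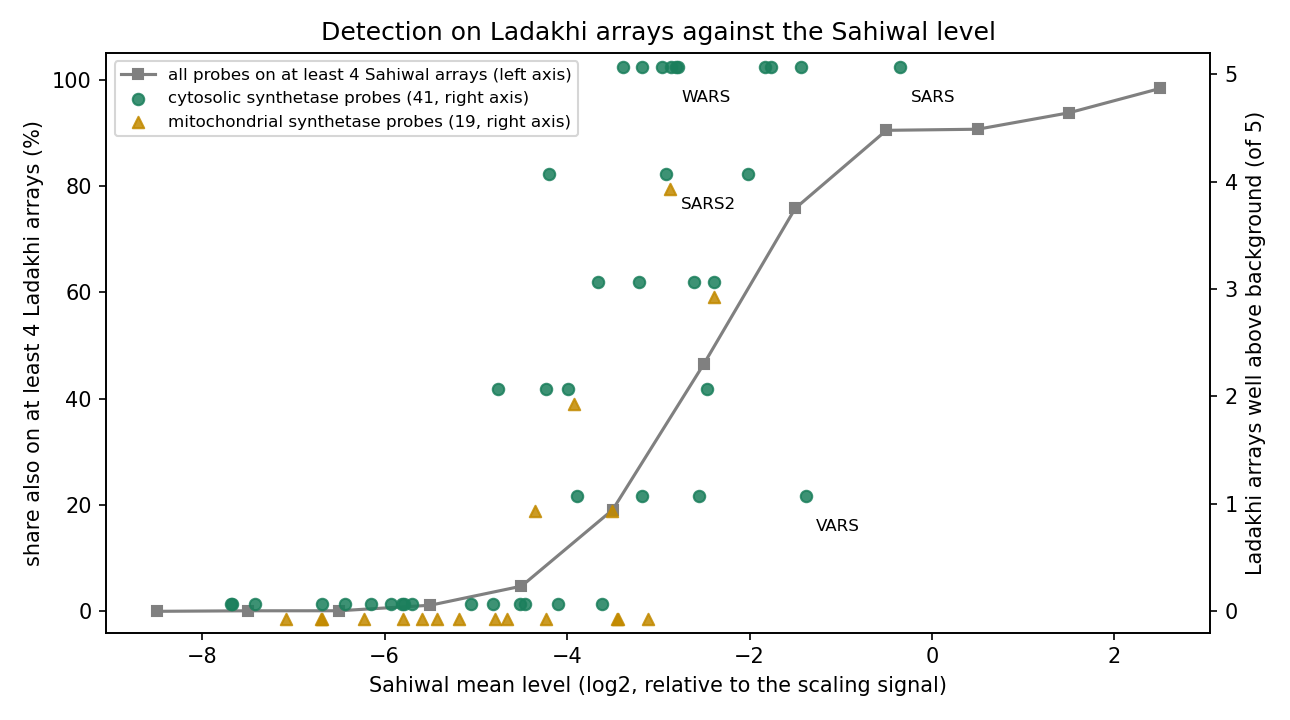
Sahiwal mean level (log2) against the share of all probes also on at least 4 Ladakhi arrays (grey, left axis) and against the number of Ladakhi arrays on which each synthetase probe was well above background (right axis). VARS stands out at the bright end with 1 Ladakhi array, at a level where 78.2% of probes were on at least 4.

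VARS, the valine enzyme, went the other way from the measured members that passed. Its probe A_73_113106 was above background on 1 Ladakhi array and on all 6 Sahiwal arrays. Its levels were -5.52, -4.84, -5.24, -5.62 and -3.69 in Ladakhi samples, against a lowest of -1.71, a median of -1.50 and a highest of -0.82 in Sahiwal samples. All Ladakhi samples lay far below all Sahiwal samples. Once every dim signal was raised to the detection limit of its array, the difference was -2.16 ± 0.29 (SE), with a limma adjusted p of 2.49e-06. Because the raised values stand for signals that were dimmer, VARS was at least 4.47-fold lower in Ladakhi samples by this probe, and the other negative differences with raised signals likewise give the least size of a decrease. The other VARS probes were above background on no Ladakhi array, at Sahiwal levels too low to bound a difference.

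FARSB, the beta subunit of the phenylalanine enzyme, was also lower by the overlapping pair of probes printed above. With dim signals raised, A_73_P036902, on 1 Ladakhi array, had a difference of -1.10 ± 0.31 (SE), with a limma adjusted p of 0.0044. Likewise raised, A_73_P253956, on 2 Ladakhi arrays, had -0.80 ± 0.29 (SE), with a limma adjusted p of 0.0208. The pair shares 54 of 60 bases and counts as 1 reading. The files place it on chromosome 6 and the other FARSB probes on chromosome 2, so its gene name is less certain. FARSA, the alpha subunit, was on 1 Ladakhi array, and its raised difference of -0.48 did not pass (limma adjusted p = 0.266).

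In all, 16 probes of 15 genes were on at least 4 Sahiwal arrays and on 1 to 3 Ladakhi arrays. With dim signals raised, 3 of the 16 probes were lower (VARS and the FARSB pair), 18.8%. The FARSB pair counts as 1 reading, so this share overstates that of separate readings. Over all probes of this kind 18.8% were lower. Another 3 were higher with raised signals (NARS A_73_103906, HARS and HARS2), where the share over all such probes was 32.4%. Their Sahiwal means of -4.76, -4.23 and -4.36 lay below the mean Ladakhi limit, and raising enlarges a positive difference there. Without it the differences were 0.31, 0.36 and 0.55 and did not pass (limma adjusted p = 0.703, 0.289 and 0.443), so no direction is read.

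The other genes seen in this way did not pass with raised signals. TARS, on 3 Ladakhi arrays, had a raised difference of -0.16, and the largest Sahiwal SD of the synthetase probes above background on all 6 arrays, 1.15. EPRS, which charges glutamate and proline in 1 protein, was also on 3 Ladakhi arrays, with -0.23. RARS, the arginine enzyme, had 0.25 from 1 Ladakhi array. Among the mitochondrial enzymes, the raised difference was -0.48 for CARS2 on 3 Ladakhi arrays, 0.53 for IARS2 on 2 and -0.04 for TARS2 on 1.

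A further 30 probes of 20 genes were on at least 4 Sahiwal arrays and on no Ladakhi array, 16 of them cytosolic and 14 mitochondrial. Their Sahiwal means ran from -7.68 to -3.11, mostly under what a Ladakhi array can show. For 4 of the 30 the Sahiwal mean exceeded the Ladakhi bound, by 1.48-fold for RARS2, 1.16-fold for LARS2, 1.11-fold for YARS2 and 1.04-fold for WARS A_73_P042111. None of the 4 passed with raised signals (limma adjusted p = 0.145, 0.556, 0.688 and 0.89), so none is called lower. Over all 10054 probes of this kind 6.74% had such a bound, and 1.37% a bound of 2-fold or more, which no synthetase reached. RARS2, LARS2 and YARS2 are the mitochondrial arginine, leucine and tyrosine enzymes, and AARS2, FARS2, MARS2, NARS2, WARS2, LARS and MARS had no bound.

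The remaining 35 probes gave no comparison. A total of 16 were above background on no array, among them the only probe of CARS, the cysteine enzyme, and 19 were on under 4 arrays in both breeds. In the second set VARS2 reached at most 2 Sahiwal arrays. PARS2, the mitochondrial proline enzyme, was above background on 1 Ladakhi array and on no Sahiwal array.

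Probe position went with detection in both breeds. In 30 genes with several probes on one chromosome, probes were ordered along the direction in which the files write their coordinates. The last probe, toward the 3′ end, was on at least 4 Ladakhi arrays in 9 of 30 genes and on at least 4 Sahiwal arrays in 25 of 30. The 41 earlier probes that lay over 1000 bases of the assembly before it were on at least 4 Ladakhi arrays in 2 cases, 4.88%, and on at least 4 Sahiwal arrays in 18 cases, 43.9%. For the 14 earlier probes within 1000 bases the counts were 2 and 12.

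WARS shows how far one gene's reading can vary. Of its 5 probes the last, A_73_109216, was 3.71-fold higher in Ladakhi samples. The next, A_73_P042111, placed 104 bases before it, was above background on no Ladakhi array and on all 6 Sahiwal arrays, where its mean was -3.62. A_73_P069581, placed 519 bases before the last probe, was on 3 Ladakhi arrays, with a raised difference of 0.57 that did not pass (limma adjusted p = 0.135). The earliest probes were on no Ladakhi array, at Sahiwal means of -4.52 and -6.15. The higher WARS level therefore rests on its last probe alone. NARS, QARS and AARS likewise rest on 1 measured probe each, with their other probes on at most 2 Ladakhi arrays, while GARS has a pair. QARS A_73_P250916, on 2 Ladakhi arrays, averaged -4.35 in Ladakhi samples, dim signals included, and -3.99 in Sahiwal samples. It did not show the rise of the measured QARS probe. QARS A_73_P399141, on no Ladakhi array, averaged -5.10 and -5.70, too low to compare.

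**Figure D5:**
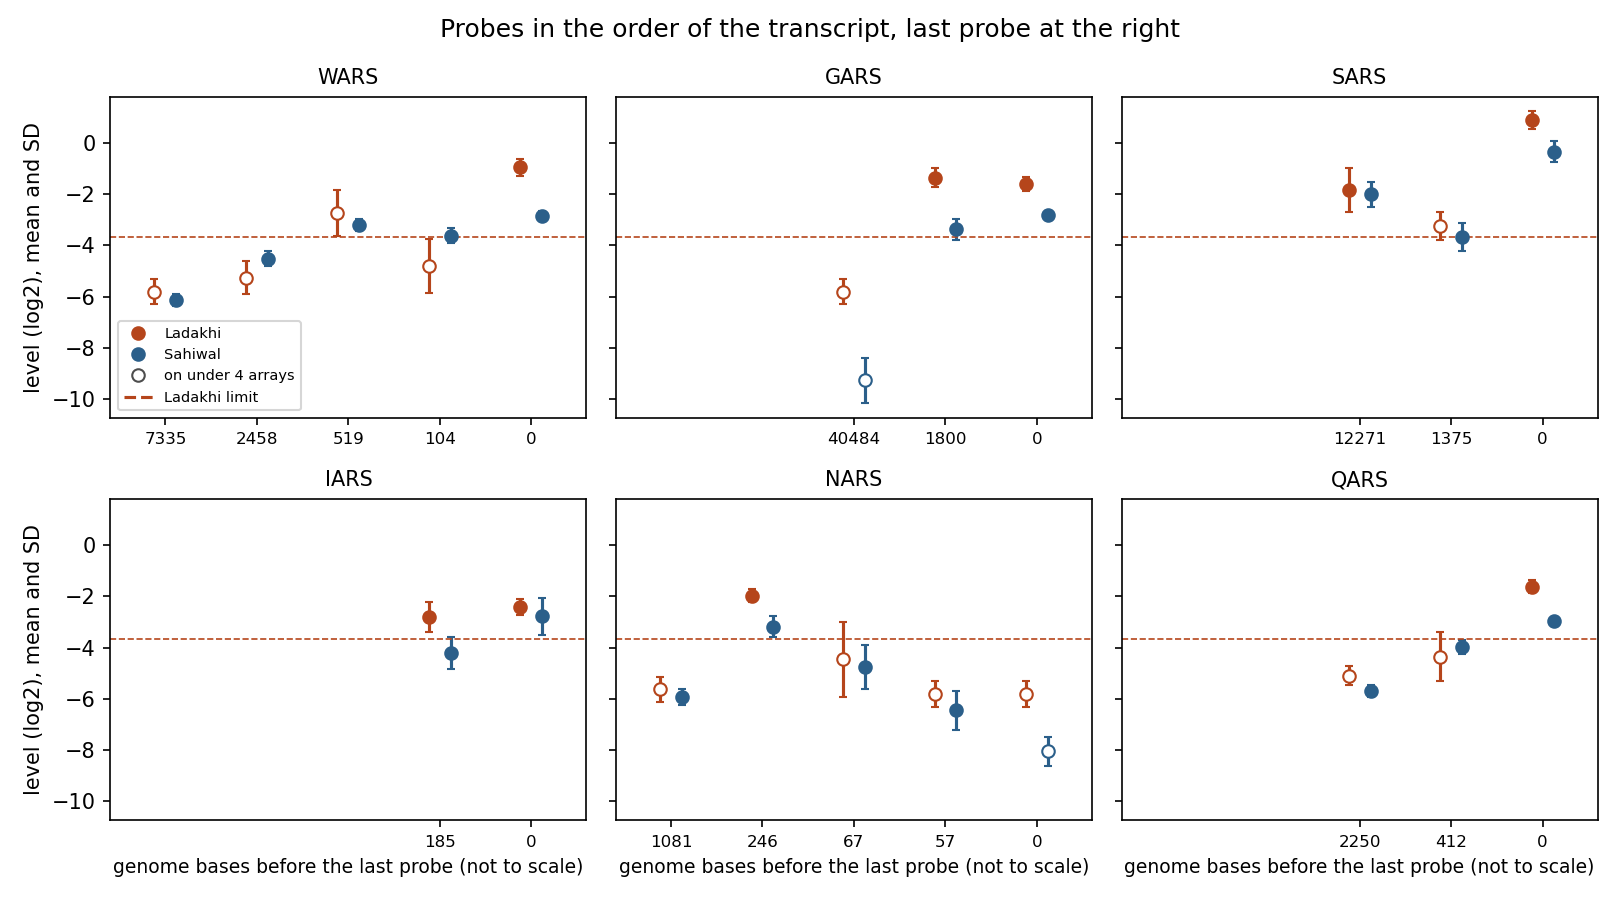
Mean level with SD (log2) of each probe of 6 synthetase genes in transcript order, last probe at the right, Ladakhi left of Sahiwal at each probe. Open points were on under 4 arrays of that breed, numbers below give genome bases before the last probe, and levels of different probes are not comparable. GARS is the gene in which both late probes were higher in Ladakhi samples.

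Genes that work with the synthetases were read from lists by role. Of 19 genes of the amino acid response, 9 were measured, 2 were higher (PSAT1 and CEBPG), none was lower and 7 did not pass, with a median difference of 0.50 against -0.03 for all measured probes. That is 2 of 9 against a background of 17.9%. PSAT1, an enzyme of serine synthesis, averaged -1.40 ± 0.41 in Ladakhi samples and -2.80 ± 0.27 in Sahiwal samples (SD, n = 5 and 6), 2.65-fold higher with a limma adjusted p of 0.00137. CEBPG, a partner of ATF4, averaged -1.99 ± 0.38 in Ladakhi samples and -3.53 ± 0.31 in Sahiwal samples, 2.91-fold higher with a limma adjusted p of 0.000828. For both, the lowest Ladakhi sample lay above the highest Sahiwal sample. The Sahiwal mean of CEBPG lay close to the mean Ladakhi limit of -3.67. Around the GARS probe A_73_P464881, with a Sahiwal mean of -3.38, 37.6% of measured probes were called higher.

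The other 7 measured genes of this list did not pass. ATF4 itself had a difference of 0.50 by its only measured probe, and PHGDH, the first enzyme of serine synthesis, had 0.66 with a limma adjusted p of 0.0667. The transporters SLC38A2 and SLC7A5 had 0.59 and 0.19, and SHMT2, a mitochondrial enzyme of serine use, had -0.87. The SHMT2 value includes Ladakhi replicate 4 at -4.93, where the other Ladakhi samples ran from -2.53 to -1.80. Over the alternatives and with each sample left out, the SHMT2 difference ran from -1.09 to -0.31. The stress genes DDIT3 and SESN2 had -0.33 and 0.12, and neither kept its direction with each sample left out. DDIT3 was 0.51 without Ladakhi replicate 5, where it was not above background, SESN2 was -0.11 without Ladakhi replicate 2, and SLC7A5 was -0.06 without Sahiwal replicate 6. Among the genes not counted as measured, 3 passed the fit with positive differences. ASNS, which makes asparagine and is a much used readout of this response, had 3.35 (limma adjusted p = 4.18e-05) from 2 Ladakhi arrays. PSPH, another enzyme of serine synthesis, had 1.498 (limma adjusted p = 0.00396) from 3. MTHFD2, a mitochondrial enzyme of folate metabolism, was on no Ladakhi array. All 3 had Sahiwal means below the mean Ladakhi limit, at -6.96, -5.14 and -7.46. At such levels a dim Ladakhi signal can lie above the Sahiwal mean, so no direction is read for any of the 3.

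The scaffold of the multisynthetase complex gave little to compare. Of its 3 genes AIMP1 was measured, with a difference of -0.48 that did not pass (limma adjusted p = 0.573). Without Ladakhi replicate 3, where it was not above background, the AIMP1 difference was 0.29. AIMP2 was above background on no Ladakhi array and on all 6 Sahiwal arrays, and its brightest probe was at least 2.11-fold lower in Ladakhi samples (limma adjusted p = 0.00332 with raised signals). EEF1E1 was on no Ladakhi array, at too low a Sahiwal level for a bound. Of 10 editing and related proteins 8 had a probe and 1 was measured, PRORSD1, with -0.34 (limma adjusted p = 0.327). DTD1, which removes D-amino acids from transfer RNA, had a Sahiwal mean 1.21-fold above its Ladakhi bound and did not pass with raised signals (limma adjusted p = 0.409). None of the 4 genes of the mitochondrial amidotransferase and formyltransferase was measured.

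Of 6 elongation factors that carry charged transfer RNA to the ribosome or serve those carriers, 5 were measured. TSFM was not, being on no Ladakhi array with a Sahiwal mean of -4.57. EEF1D, EEF1G and TUFM had differences of 0.06, 0.48 and -0.03, and the signs for EEF1D and TUFM turned with single samples left out. EEF1B2 had -0.68 with a limma adjusted p of 0.0535 by its brightest probe, which was saturated on 2 Sahiwal arrays, and -1.998 by its other measured probe. EEF1A1 passed as higher by its brightest probe, which was saturated on all 6 Sahiwal arrays. Its 8 measured probes ran from -0.91 to 1.52, so no direction is given for it.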

How the data were processed

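Each array's processed green signal is an intensity on a linear scale that the authors deposited as scanner output, background-subtracted by Agilent Feature Extraction per the file headers (12.0.1.1 for Ladakhi on an Agilent scanner, 9.5.3.1 for Sahiwal on an Axon GenePix scanner). A deposited table of log2 values by the authors served as an alternative, by breed only, because 0 of its 11 columns matched the array of its own number and all matched an array of the same breed. Control spots and 294 outlier spots were left out, and saturated spots were kept. Levels were scaled to the 75th percentile as described, since most probes were not detected on every array, and tested in limma 3.58.1 (R 4.3.3), 2 groups, adjusted over 17866 probes. Detection used the files' well-above-background flag. The fit was tested on simulated data. Replicate numbers did not pair samples: correlations of same-numbered deviations ran from -0.05 to 0.02.

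Members and lists were chosen with earlier results of these data known. Genes of the rule were named, with values of each array for measured probes, and some items are not reported here. Raised values replace dim signals by the array's lowest signal among probes well above background, or the spot's own where higher, and bounds use the same. Of the 95 probes, 83 matched the RefSeq gene table by accession. Alternatives covered scaling, normexp with offset 50, filters, flags, saturation, slide and replicate blocks, the variance trend, the deposited table, probe averaging and leaving out each sample. The median of all measured probes moved by 0.21 under quantile, 0.44 under cyclic loess, 0.28 under normexp and -0.20 with saturated spots missing, and those settings were recentred.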

Additional observations from a re-analysis of the deposited data

Results flagged for a closer look

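Of 48 groups of levels examined, 2 held a sample far from the rest, and chance marks about 1 group in 20. The IARS probe A_73_P394611 stood at -3.83 in Ladakhi replicate 1, not above background, where the other Ladakhi samples ran from -2.65 to -2.41. The CARS2 probe A_73_109045 stood at -3.49 in Sahiwal replicate 6, where the other Sahiwal samples ran from -2.32 to -2.001.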

How the results depend on the processing

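The count of 8 higher synthetase probes ran from 8 to 9 over the alternatives and from 8 to 9 with each sample left out in turn, and that of 6 higher genes from 5 to 7 and from 6 to 7; none of the 14 measured probes was called lower in any of these, while VARS and the FARSB pair, not among the 14, were lower with dim signals raised. Relative to all measured probes, the median cytosolic difference was 1.14 (0.91 to 1.18 over alternatives, 1.06 to 1.20 with a sample left out) and the mitochondrial one, SARS2 alone, 0.26 (0.19 to 0.50 and 0.12 to 0.39). Among the measured probes, DARS passed with normexp (0.85) and without Ladakhi replicate 4 (1.21), and SARS did not pass by the mean of its probes (0.70); their causes were not tested. The count of 3 related genes, all higher and EEF1A1 among them, was 5 with normexp (3 higher, 2 lower) and 5 with no filter, with measured probes only, with dim signals raised and with slide as a random block (4 higher, 1 lower each). It was 2 with saturated spots missing and 3 to 4 with a sample left out. PHGDH passed as higher in 6 alternatives and EEF1B2 as lower in 10, PRORSD1 was lower with normexp (-0.51), and EEF1A1 did not pass with quantile scaling (0.46) or by the mean of its probes (0.30). With the replicate number as a block, which does not pair the samples, 8 probes and 6 genes were higher and the medians were 1.15 and 0.19. Probes above background on every array of a breed numbered 10 of 14 in Ladakhi and 54 of 60 in Sahiwal. The dim Ladakhi arrays limit the comparison: their detection limits ran from -4.34 to -2.94, and a level below its array's limit was not measured.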
